A study of Mus musculus with 31 samples.

Results

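Sox10 and 5 genes that are often read beside it as signs of a neural crest origin, Sox9, Erbb3, Mbp, S100b and Mia, were followed through bulk RNA sequencing of mouse breast tumours. The genes were matched by symbol in a table of 39017 genes, and each of the 6 had 1 row. They were chosen because Sox10 separated libraries of the tumour model titled MT from one another. Their levels in the MT libraries are therefore given as a description, and the only MT comparison in which they are tested is that of the combination against poly I:C alone.

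The tumours were grown orthotopically in syngeneic mice, and all 31 libraries are labelled wild type. Control tumours received saline and PBS, phenformin tumours saline and phenformin, poly I:C tumours poly I:C and PBS, and combination tumours poly I:C and phenformin. Phenformin is a biguanide that inhibits mitochondrial complex I, and poly I:C mimics viral double-stranded RNA and activates Toll-like receptor 3. Doses, times and the age of the mice are not given in the sources used here. The 15 libraries titled 4T1 and the 16 titled MT each fell into these 4 arms, with 4 libraries per group and 3 in 4T1 phenformin (replicates 1, 2 and 4). The series' design places MT tumours in FVB mice and 4T1 tumours in BALBc mice, whereas the tags of the 4T1-titled libraries name FVB and the line MT4788, and those of the MT-titled libraries name BALBc and the line 4T1-537. The titles were followed here, and model, strain and line cannot be told apart. The deposited symbol H2-Ea-ps is a class II gene that differs between mouse strains and is transcribed in BALB/c mice. It lay at 214 CPM or more in each 4T1-titled library and at 53 CPM or less in each MT-titled one. CPM are counts scaled to the library total in the usual way. The labels do not say that replicates were separate animals, so p-values measure only the spread between these libraries. Total counts were 12160110 to 19849915 per library. The epithelial markers Epcam (181 to 975 CPM) and Krt8 (85 to 736 CPM) were present in every library.

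Sox10, Sox9 and Sox8 form the SoxE group of transcription factors, which bind DNA through an HMG box. Sox10 maintains neural crest cells and their Schwann cell and melanocyte descendants, acts in oligodendrocytes, and is also made by some mammary epithelial cells. Sox9 is the main regulator of cartilage and is active in many epithelia. Erbb3 is a receptor for neuregulins that signals with Erbb2 and is needed by Schwann cells. Mbp encodes myelin basic protein, and the same locus makes golli transcripts in cells of the immune system. S100b encodes a calcium-binding protein of glia, and Mia a small secreted protein of melanoma cells and chondrocytes.

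In GRCm38, Sox10 (ENSMUSG00000033006) lies on the minus strand of chromosome 15, 79154908 to 79165240. Sox9 (ENSMUSG00000000567) lies on the plus strand of chromosome 11, 112782224 to 112787760. Erbb3 (ENSMUSG00000018166) and S100b (ENSMUSG00000033208) are both on chromosome 10, at 128567523 to 128589652 (minus strand) and 76253853 to 76261159 (plus strand). Mia (ENSMUSG00000089661) spans 27179742 to 27181157 on chromosome 7. Counts per gene cover all annotated exons, so isoforms of Mbp are not separated. Mia shares 410 exon bases with Gm21983 on the same strand, and reads from there could be split or dropped in counting. S100b overlaps Dip2a on the opposite strand without a shared exon base.

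Sox10 and Sox9 are paralogs, and the part of their coding sequence that matters for telling their reads apart is the stretch that runs from the dimerisation domain into the HMG box. Over 150 bases of it, coding bases 199 to 348 of Sox10 and 202 to 351 of Sox9, 140 bases were identical and 10 differed (93.3% identity). The differing bases are in capitals, 5′ to 3′ on the coding strand.
Sox10: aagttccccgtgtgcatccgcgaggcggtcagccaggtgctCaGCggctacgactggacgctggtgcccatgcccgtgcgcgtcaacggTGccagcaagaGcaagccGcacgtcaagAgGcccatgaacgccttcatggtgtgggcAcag
Sox9: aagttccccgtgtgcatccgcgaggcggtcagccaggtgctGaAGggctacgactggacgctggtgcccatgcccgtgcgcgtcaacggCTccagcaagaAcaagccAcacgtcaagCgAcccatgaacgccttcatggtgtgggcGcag
The longest exact stretch shared by the transcripts with the longest coding sequence of each gene was 44 bases. Other annotated transcripts were not compared. Read length and the handling of multiply mapped reads are not given in the sources used here. In the library with the most Sox9, MT control 4 at 1292 CPM, Sox10 was 1.32 CPM, so reads of Sox9 that were counted as Sox10 amounted to no more than that.

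Sox10 was the member that split the MT tumours, and none of the other 5 genes was high in the same libraries only. It was 168, 211, 171 and 1.32 CPM in MT control 1 to 4, and 188, 185, 34.4 and 2.82 CPM in MT phenformin 1 to 4. The poly I:C tumours had 0.853, 2.45, 1.64 and 1.49 CPM and the combination tumours 0.699, 2.59, 3.19 and 1.78 CPM. Control 1 to 3 and phenformin 1 and 2 were thus high, phenformin 3 lay between, and every library of the arms with poly I:C was low, as were control 4 and phenformin 4. The highest library exceeded the lowest 301-fold, and the lowest still rested on 11 counts. In bulk tissue fewer cells of a type and less RNA per cell cannot be told apart.

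Mbp (ENSMUSG00000041607, GRCm38 chromosome 18, 82475146 to 82585637), the myelin gene of the set, ran opposite to Sox10. It was 7.72, 6.39, 6.71 and 62.3 CPM in MT control 1 to 4 and 7.3, 8.14, 39.7 and 74 CPM in phenformin 1 to 4. In the poly I:C tumours it was 41.9, 49.5, 73.7 and 46.3 CPM, and in the combination tumours 80.7, 41, 39 and 56.9 CPM. The 5 libraries with the least Mbp were the 5 with the most Sox10, and phenformin 3 had 39.7 CPM, inside the range of the Sox10-low libraries. The leukocyte gene Ptprc was 54.2, 45.7, 68.1 and 245 CPM in control 1 to 4 and 123, 74, 88.9 and 669 CPM in phenformin 1 to 4. It reached 895 CPM in combination 1, the library with the most Mbp, and its part in the Mbp level was not tested.

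Sox9 was abundant in all MT tumours and did not follow Sox10. It was 389, 308, 207 and 1292 CPM in control 1 to 4, 241, 297, 998 and 484 CPM in phenformin 1 to 4, 709, 468, 356 and 685 CPM with poly I:C, and 127, 867, 845 and 446 CPM with the combination. The most Sox9 was in control 4 and phenformin 3, and the least in combination 1, a Sox10-low library. In the Sox10-high libraries it was 207 to 389 CPM. All other MT libraries except poly I:C 3 (356 CPM) and combination 1 (127 CPM) lay above that range. Combination 1 stood apart from the other MT libraries in epithelial content, with Epcam at 190 CPM against 366 CPM or more in each of the others, and in immunoglobulin, with Igkc at 9108 CPM.

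Erbb3, Mia and S100b varied less, and their levels in the Sox10-high libraries overlapped those elsewhere. Erbb3 was 41, 30.3, 24.3 and 22.6 CPM in MT control 1 to 4 and 38.1, 29.2, 31.5 and 19.4 CPM in phenformin 1 to 4, with 22.7 to 26.8 CPM in poly I:C tumours and 9.79 to 35 CPM in combination tumours. Its lowest value was again in combination 1, and Erbb3 in combination 3 (35 CPM, Sox10 at 3.19 CPM) exceeded that in control 2 (30.3 CPM, Sox10 at 211 CPM). Mia was 13.2, 10, 10.9 and 22.6 CPM in control 1 to 4 and 11.7, 10.3, 21.1 and 11.9 CPM in phenformin 1 to 4. With poly I:C it was 8.7 to 17.1 CPM and with the combination 5.08 to 22 CPM. S100b was the scarcest, at 1.35 to 3.78 CPM in control, 1.28 to 2.62 CPM in phenformin, 1.67 to 4.46 CPM in poly I:C and 2.48 to 4.76 CPM in combination tumours, from 19 counts upwards.

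**Figure D1:**
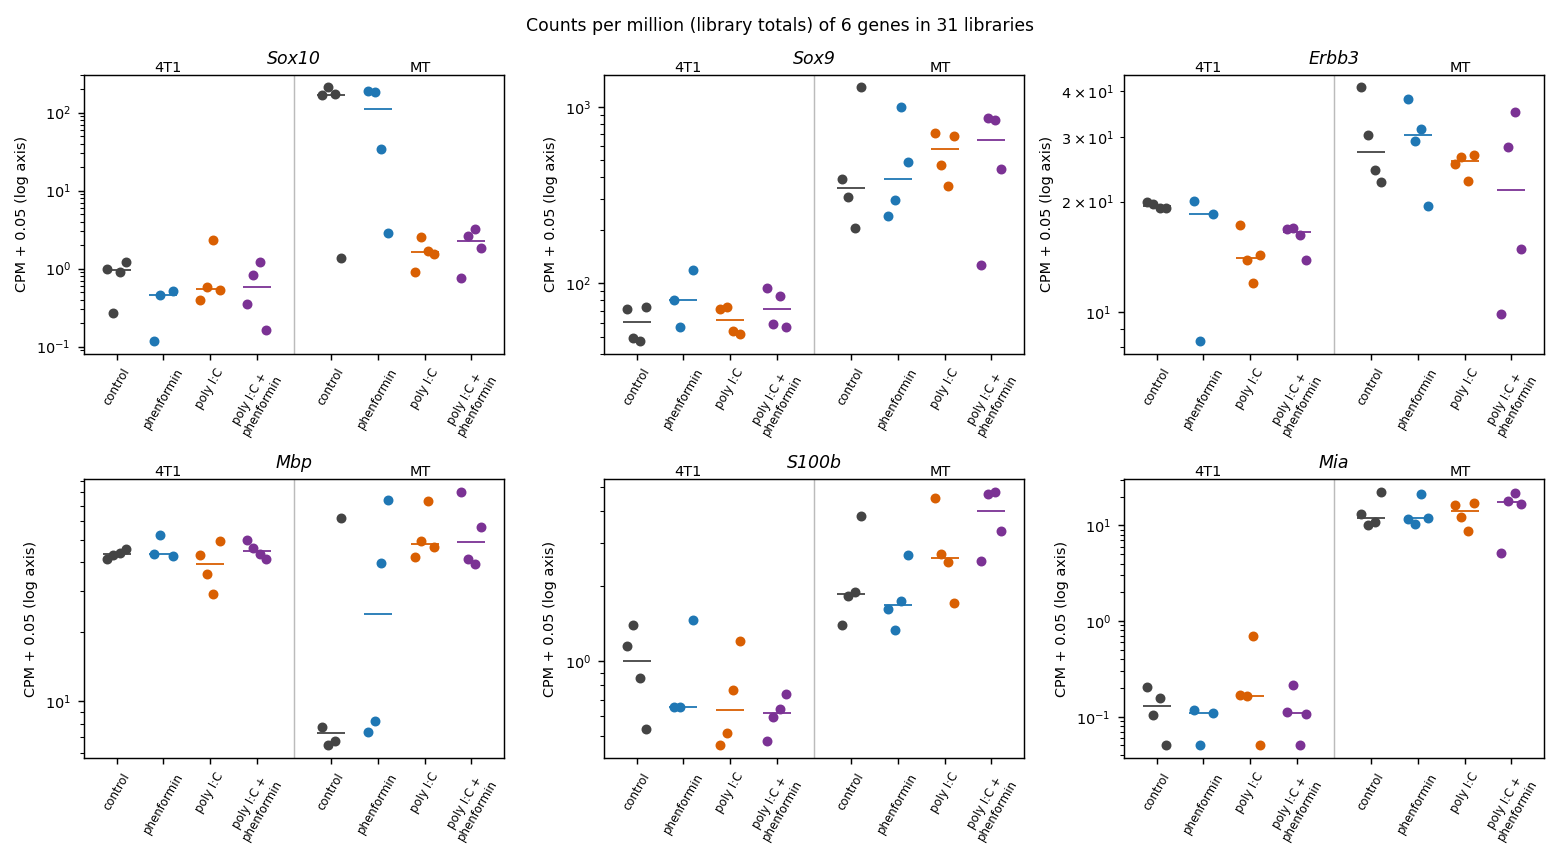
CPM of the 6 genes, with 0.05 added, on log axes; each point is 1 of 31 libraries, grouped by model and arm, and the bars are group medians. Sox10 reaches 168 to 211 CPM in 5 MT libraries and stays at or below 3.19 CPM in all 4T1 libraries and in the MT arms with poly I:C, while Mbp is lowest (6.39 to 8.14 CPM) in those 5 MT libraries.

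**Figure D2:**
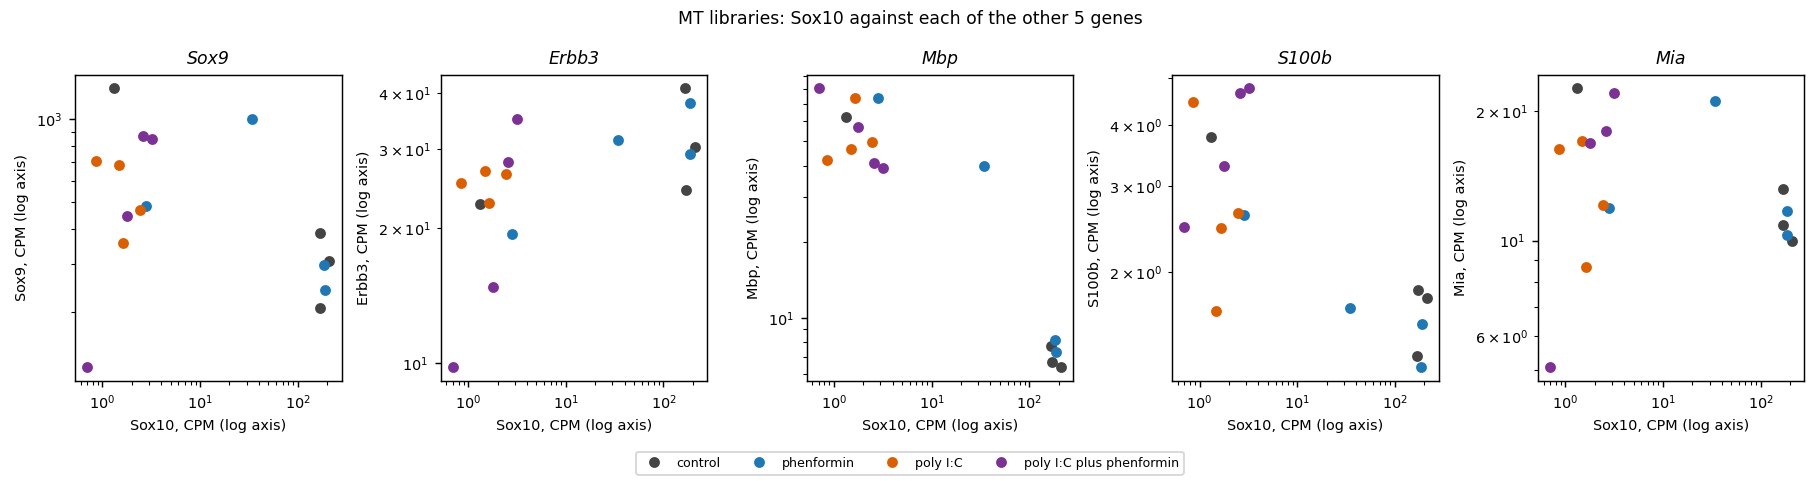
Sox10 (x axis, CPM, log) against each of the other 5 genes (y axis, CPM, log) in the 16 MT libraries, coloured by arm. The 5 Sox10-high libraries sit at the bottom of the Mbp panel, and overlap the other libraries in the Erbb3 and Mia panels.

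In the 4T1 tumours Sox10 was near the detection limit, from 1 count (0.0671 CPM, phenformin 1) to 35 counts (2.27 CPM, poly I:C 3). Sox9 was 47 to 119 CPM, below the lowest MT library (127 CPM). Mbp was 29.1 to 52.4 CPM in all 15 libraries, a range that the Sox10-low MT libraries shared in part. Erbb3 was 8.26 to 20 CPM and S100b 0.408 to 1.41 CPM (7 counts or more). Mia had 0 counts in 4 of 15 libraries, which allows up to 0.151 to 0.182 CPM there for counting error alone (3 counts), and at most 0.649 CPM elsewhere. Its lowest MT value was 5.08 CPM, so the models did not overlap in Mia, nor, by a narrow margin (119 against 127 CPM), in Sox9. How many of all genes separate the models in this way was not counted, so nothing particular to these genes is read from it.

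Per kilobase of annotated exon, Sox9 had the highest level of the 6 genes in all 15 4T1 libraries, at 11.4 to 28.7 CPM per kb. Mbp followed at 3.43 to 6.19 CPM per kb and lay above Erbb3 in every 4T1 library. Mia ranked under S100b in 14 of these 15 libraries. In the MT tumours Sox9 was above Erbb3, Mbp, S100b and Mia in 16 of 16 libraries, at 30.8 to 313 CPM per kb. Sox10 exceeded Sox9 per kilobase in 2 of 16, control 3 and phenformin 1, and was the lowest of all 6 in control 4, phenformin 4 and every library that received poly I:C. Mia came next after Sox9 in 10 MT libraries, and Erbb3 and Mbp did not keep an order (Erbb3 was above Mbp in 7 of 16).

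The question put to the 4T1 tumours, and to the MT arms that both received poly I:C, was whether treatment changed the 6 genes, since the members were not chosen on these contrasts. None of the members was called by edgeR's quasi-likelihood test with Benjamini-Hochberg adjustment over all genes (adjusted p under 0.05), in any of 5 comparisons. Mia did not pass the filter on low counts in the 4T1 model, so 5 members were tested there and 6 in the MT model. DESeq2 called none of them either.

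For poly I:C against control in 4T1 tumours, 0 of 5 tested members were called, where 6.32% of 17445 genes were. Erbb3 was 17.2, 13.8, 11.9 and 14.2 CPM with poly I:C and 19.9, 19.6, 19.1 and 19.2 CPM in controls. The groups did not overlap, which was so for 12.9% of all genes tested, and 14.3 ± 2.17 against 19.4 ± 0.368 CPM (mean ± SD, n = 4 each) gave a log2 fold change of -0.42 ± 0.22 (SE, edgeR adjusted p = 0.254). Acta1, a skeletal muscle actin, ranged from 18.5 to 227 CPM across 5 of the 4T1 libraries (phenformin 4, combination 1 and 4, poly I:C 2 and 3) and reached at most 5.16 CPM in the others. When those 5 libraries were left out, the value was -0.28 (edgeR adjusted p = 0.667). Sox10 was 0.35, 0.522, 2.27 and 0.486 CPM with poly I:C and 0.939, 0.217, 0.856 and 1.15 CPM in controls (0.21 ± 0.72, edgeR adjusted p = 0.892). Its sign rested on poly I:C 3, without which the log2 fold change was -0.75 (edgeR adjusted p = 0.558). Sox9 (0.08 ± 0.25), Mbp (-0.12 ± 0.14) and S100b (-0.42 ± 0.42) overlapped between the groups.

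Phenformin against control in 4T1 tumours (n = 3 against n = 4) gave 0 called members and 0% of 17445 genes, with 1753 genes at an unadjusted p under 0.05 and 177 called by DESeq2. Sox9 was 80.9, 56.2 and 119 CPM with phenformin and 71.8, 49.2, 47 and 73.1 CPM in controls. The ranges overlapped, and the log2 fold change of 0.55 ± 0.27 had an edgeR adjusted p = 0.524. It was 0.21 without phenformin 4 (edgeR adjusted p = 0.884), whose Acta1 was 40.1 CPM. Erbb3 was 20, 8.26 and 18.4 CPM with phenformin, the low value being replicate 2, in which Epcam was lowest of the 4T1 libraries (181 CPM) and Igkc was 610 CPM. Without replicate 2 the Erbb3 log2 fold change went from -0.27 ± 0.23 to 0.03. Sox10 was 0.0671, 0.403 and 0.471 CPM on 1, 8 and 8 counts (-1.24 ± 0.85, edgeR adjusted p = 0.678).

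With the combination against control in 4T1 tumours 0 members and 0% of 17445 genes were called (2072 at an unadjusted p under 0.05, 395 by DESeq2). Erbb3 was 16.8, 16.9, 16.2 and 13.8 CPM, again below each of the 4 controls, as 9.19% of all tested genes did not overlap. The log2 fold change was -0.23 ± 0.21 (edgeR adjusted p = 0.734). Both Erbb3 comparisons share the same controls, whose values lay within 19.1 to 19.9 CPM. S100b was 0.429, 0.549, 0.59 and 0.691 CPM with the combination and 1.1, 1.35, 0.802 and 0.483 CPM in controls (-0.68 ± 0.43, edgeR adjusted p = 0.573).

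No member was called in either model when phenformin was added to poly I:C. In 4T1 tumours 0 of 5 were called where 0.246% of 17445 genes were, with Mbp at 49.8, 45.9, 43.4 and 41.1 CPM against 42.7, 35.3, 29.1 and 49.3 CPM (0.23 ± 0.14, edgeR adjusted p = 0.376). In MT tumours 0 of 6 were called, as were 0% of 17857 genes (1076 at an unadjusted p under 0.05, 4 by DESeq2). The spread in that fit came from all 16 MT libraries, including the arms that Sox10 split, so a change could be missed. Sox10 lay within 0.699 to 3.19 CPM in the arms compared, yet its standard error was 1.23. A fit of only these groups called no member either. The MT log2 fold changes were 0.37 ± 1.23 for Sox10, 0.05 ± 0.63 for Sox9, -0.20 ± 0.34 for Erbb3, 0.05 ± 0.77 for Mbp, 0.44 ± 0.36 for S100b and 0.19 ± 0.39 for Mia. Combination 1, with the lowest Sox9, Erbb3 and Mia and the highest Mbp of the 16 libraries, set part of these values. Without it Sox9 was 0.38, Erbb3 0.05 and Mbp -0.21.

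**Figure D3:**
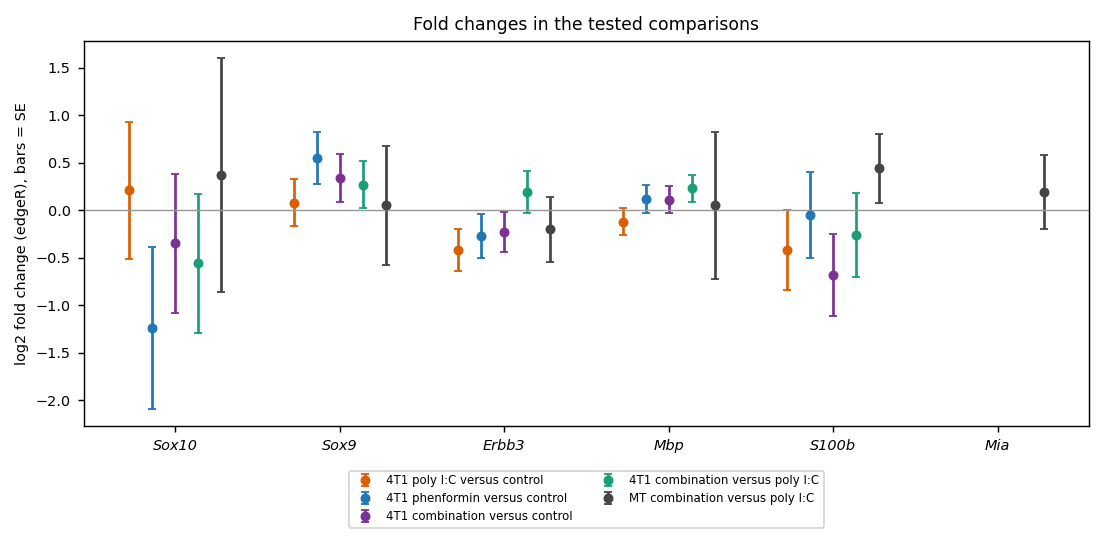
Log2 fold changes of the 6 genes from the edgeR fits (points) with their standard errors (bars) in the 5 tested comparisons; Mia was fitted in the MT model only. No point passed an adjusted p of 0.05, and the Sox10 values have the widest bars of the 4T1 comparisons, from 0.72 to 0.85.

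Genes around the members in their pathways were taken from lists. Of 25 Schwann cell and myelin genes, 18 were tested in 4T1 tumours, and poly I:C against control gave 1 higher and 1 lower. Ncam1, a neural cell adhesion molecule, rose from 4.54, 2.71, 3.32 and 2.9 CPM in controls to 7.17, 11.5, 20.8 and 5.95 CPM (1.77 ± 0.34, edgeR adjusted p = 0.0128). The Ncam1 call was lost when libraries with more than 10 CPM of Acta1 were left out, at 0.99 (edgeR adjusted p = 0.197), and it held whichever 1 library was left out. The refit without the libraries high in Acta1 kept only poly I:C 1 and 4 of that arm and called no gene at all in this comparison. Losses in that refit, here and for the genes below, are thus not particular to a gene. Gas7 fell (-0.67 ± 0.19, edgeR adjusted p = 0.0458), a call lost without each control or poly I:C 1, 2 or 3 (edgeR adjusted p up to 0.126). It was also lost with the replicate block (edgeR adjusted p = 0.0785), with only these groups (0.0501) and without the libraries high in Acta1 (0.226) or Igkc (0.113). The list's median log2 fold change was 0.27, against 0.01 over all genes.

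Among ErbB receptors and ligands, 1 of 12 tested genes rose with poly I:C in 4T1 tumours and none fell. It was Ereg, which encodes the ligand epiregulin, at 8.04, 2.44, 6.94 and 1.09 CPM against 1.15, 0.65, 0.963 and 0.665 CPM (2.43 ± 0.50, edgeR adjusted p = 0.0151). The call held without any 1 library, but was lost without the libraries with Acta1 above 10 CPM (edgeR adjusted p = 0.184) or with Igkc, an antibody light chain gene, above 100 CPM (control 4, phenformin 2 and poly I:C 1; edgeR adjusted p = 0.0938) and in a fit of only these groups (edgeR adjusted p = 0.0577). Erbb2, the partner of Erbb3, was 40.3 to 61 CPM with poly I:C and 63.1 to 67.4 CPM in controls, without a call. The S100 and Mia family gave 1 lower gene of 13, S100a1 (-0.47 ± 0.12, edgeR adjusted p = 0.0386), a call also lost without each control or poly I:C 1, 2 or 3 (edgeR adjusted p up to 0.0883). The S100a1 call did not hold with the replicate block (edgeR adjusted p = 0.0633) or without the libraries high in Acta1 (0.239) or Igkc (0.0747). No gene of the melanocyte (6 tested), oligodendrocyte (1), neural crest transcription factor (13), other Sox (9) or chondrocyte (6) lists was called in that comparison. In the other 3 comparisons of 4T1 tumours and in the combination against poly I:C in MT tumours, no listed gene was called.

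Of the lists of other tissues that a tumour piece can hold, few genes were called in the 4T1 arms. With poly I:C, 1 of 12 tested adipocyte genes fell (Pnpla2, -0.80 ± 0.14, edgeR adjusted p = 0.0096, but 0.167 without the libraries high in Acta1) and 1 of 15 skeletal muscle genes rose (Myh4, 9.95 ± 2.78, edgeR adjusted p = 0.0478). Myh4 was 0 to 0.0542 CPM in controls, and the call was lost without each control or poly I:C 2 or 3 (edgeR adjusted p up to 0.12). It was lost too with the replicate block (edgeR adjusted p = 0.0612) and without the libraries high in Acta1 (0.141) or Igkc (0.0859). Summed over the list, muscle genes ran from 23.9 to 990 CPM in 4T1 libraries and from 1.5 to 14.3 CPM in MT libraries. No gene of the basal epithelial (11 tested), luminal epithelial (18) or cornified epidermis (2) lists was called in the 4T1 comparisons.

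The label of neural crest-like genes was checked against defining markers of the cells that Sox10 serves. Of the melanocyte markers, the pigment enzyme gene Tyrp1 had 0 counts in all 31 libraries, Tyr and Dct did not exceed 0.127 and 0.118 CPM, and Mlana did not exceed 1.17 CPM. Pmel was 0.729 to 18.1 CPM, and highest in MT phenformin 4, a Sox10-low library. The 15 listed melanocyte genes, which include the transporter gene Slc24a5 (21.9 to 52.3 CPM), summed to 68 to 122 CPM in 4T1 and 85.9 to 228 CPM in MT libraries. In MT control 1 to 4 that sum was 171, 154, 132 and 172 CPM, so it did not fall with Sox10 in control 4. Of the oligodendrocyte markers, Mog, Mobp, Olig1 and Olig2 were at 0.134 CPM or less everywhere, and the 10 listed genes summed to 0.425 to 1.95 CPM in 4T1 and 1.81 to 6.17 CPM in MT libraries. The 25 Schwann cell and myelin genes summed to 198, 211, 197 and 412 CPM in MT control 1 to 4, again not higher where Sox10 was. That sum includes Sostdc1, which ran opposite to Sox10. Of the Schwann cell genes, Mag, an adhesion protein of myelinating glia, was 0.207, 0.616 and 0.921 CPM in MT control 1 to 3, where Sox10 was high, and 0.576 CPM in control 4. Pmp22, a myelin protein that many other tissues also make, was 8.71, 8.01, 7.37 and 7.4 CPM in the same order and 13.1 to 42.8 CPM in the 4T1 libraries, where Sox10 was low. Prx, a protein of myelinating Schwann cells, was 6.89, 6.39, 6.45 and 4.93 CPM in MT control 1 to 4 and 4.17 to 7.41 CPM in 4T1. The early neural crest factors Foxd3 and Pax3 did not exceed 0.195 and 0.975 CPM in any library. The melanocyte and Schwann cell sums were not higher in the Sox10-high controls than in control 4. In MT phenformin 1 to 4 the melanocyte sum was 228, 169, 205 and 162 CPM, thus higher in replicates 1 and 2 than in 4. The Schwann cell sum was 198, 203, 368 and 450 CPM there, although its members Cdh19 and Ncmap ran with Sox10 in MT tumours. The defining melanocyte and oligodendrocyte markers other than Pmel were scarce. As the listed markers did not all go the same way, the label is not used. The set is called here Sox10 and the 5 genes listed with it.

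Other genes of the lists did run with Sox10 through the MT libraries, and they came from several lists. These genes were picked for their pattern after their values were seen. Cdh19, a cadherin of Schwann cell precursors, was 18.4, 14.7, 13.7 and 0.576 CPM in control 1 to 4 and 22.4, 16.1, 3.02 and 0.537 CPM in phenformin 1 to 4. It was 0.445 to 2.76 CPM in both poly I:C arms. Ncmap, a membrane protein of compact myelin, was 15.2, 10.5, 13.3 and 1.81 CPM and 6.76, 9.69, 3.46 and 0.872 CPM in the same order, but 16.4 to 65.6 CPM in the 4T1 libraries, where Sox10 was at most 2.27 CPM. Snai1, a transcription factor of delaminating crest cells, showed the same disparity: 25.4, 29.3, 30.3 and 1.73 CPM in MT control 1 to 4, 1.08 to 4.56 CPM in the MT arms with poly I:C, and 14 to 28 CPM in 4T1.

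The relative of Snai1, Snai2, ran the other way. It was 3.94, 2.62, 3.09 and 111 CPM in MT control 1 to 4 and 5.25, 4.44, 98.3 and 63.3 CPM in phenformin 1 to 4. Tfap2b, another neural crest factor, did likewise (1.24, 1.54, 0.987 and 42.8 CPM in control 1 to 4), while Tfap2a, one of the more abundant of the listed factors, was 49.8 to 64.6 CPM in all 4 controls. Summed over the 20 listed factors, the level was 754, 793, 689 and 1209 CPM in control 1 to 4, so the list as a whole was not higher where Sox10 was.

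Sox genes also divided. Sox6 was 18.1, 20.7, 23 and 2.88 CPM in MT control 1 to 4 and Sox21 10.7, 17.7, 11.9 and 4.44 CPM. Sox11 went the opposite way, at 0.104, 0.154, 0.197 and 21 CPM. Sox8, the third SoxE gene, was 16, 21.3, 13.2 and 9.29 CPM in controls and 18 CPM in combination 2, so it did not split with Sox10. Sox2 was 16.9 CPM in control 1 and at most 0.546 CPM in the other 15 MT libraries.

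Cartilage genes, the textbook targets of Sox9, were found on both sides in MT tumours. Col9a1 was 629, 448, 447 and 35 CPM in control 1 to 4 and 590, 494, 113 and 20.3 CPM in phenformin 1 to 4. Col2a1 was 64, 42, 33 and 1.64 CPM in the same controls. Acan was 10.1, 7.16, 6.31 and 94.1 CPM there, opposite to both, and Col9a3 (397, 339, 269 and 185 CPM) differed less. Sox9 itself was lower in control 1 to 3 than in control 4, so Col9a1 and Col2a1 were high where Sox9 was not. Matn1 and Matn3 stayed at 0.622 CPM or less in every library. Summed over the listed chondrocyte genes, the level was 1567, 1137, 1031 and 689 CPM in control 1 to 4. It was 1556, 1221, 906 and 339 CPM in phenformin 1 to 4, so in these arms the sum was higher where Sox10 was. That sum includes Col9a1, which alone was 447 CPM or more in control 1 to 3 and 35 CPM in control 4. Other listed genes such as Acan ran opposite, so the sum does not speak for each gene of the list. With poly I:C, where Sox10 was low, the sum was 632 to 1331 CPM, and with the combination 178 to 1244 CPM.

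**Figure D4:**
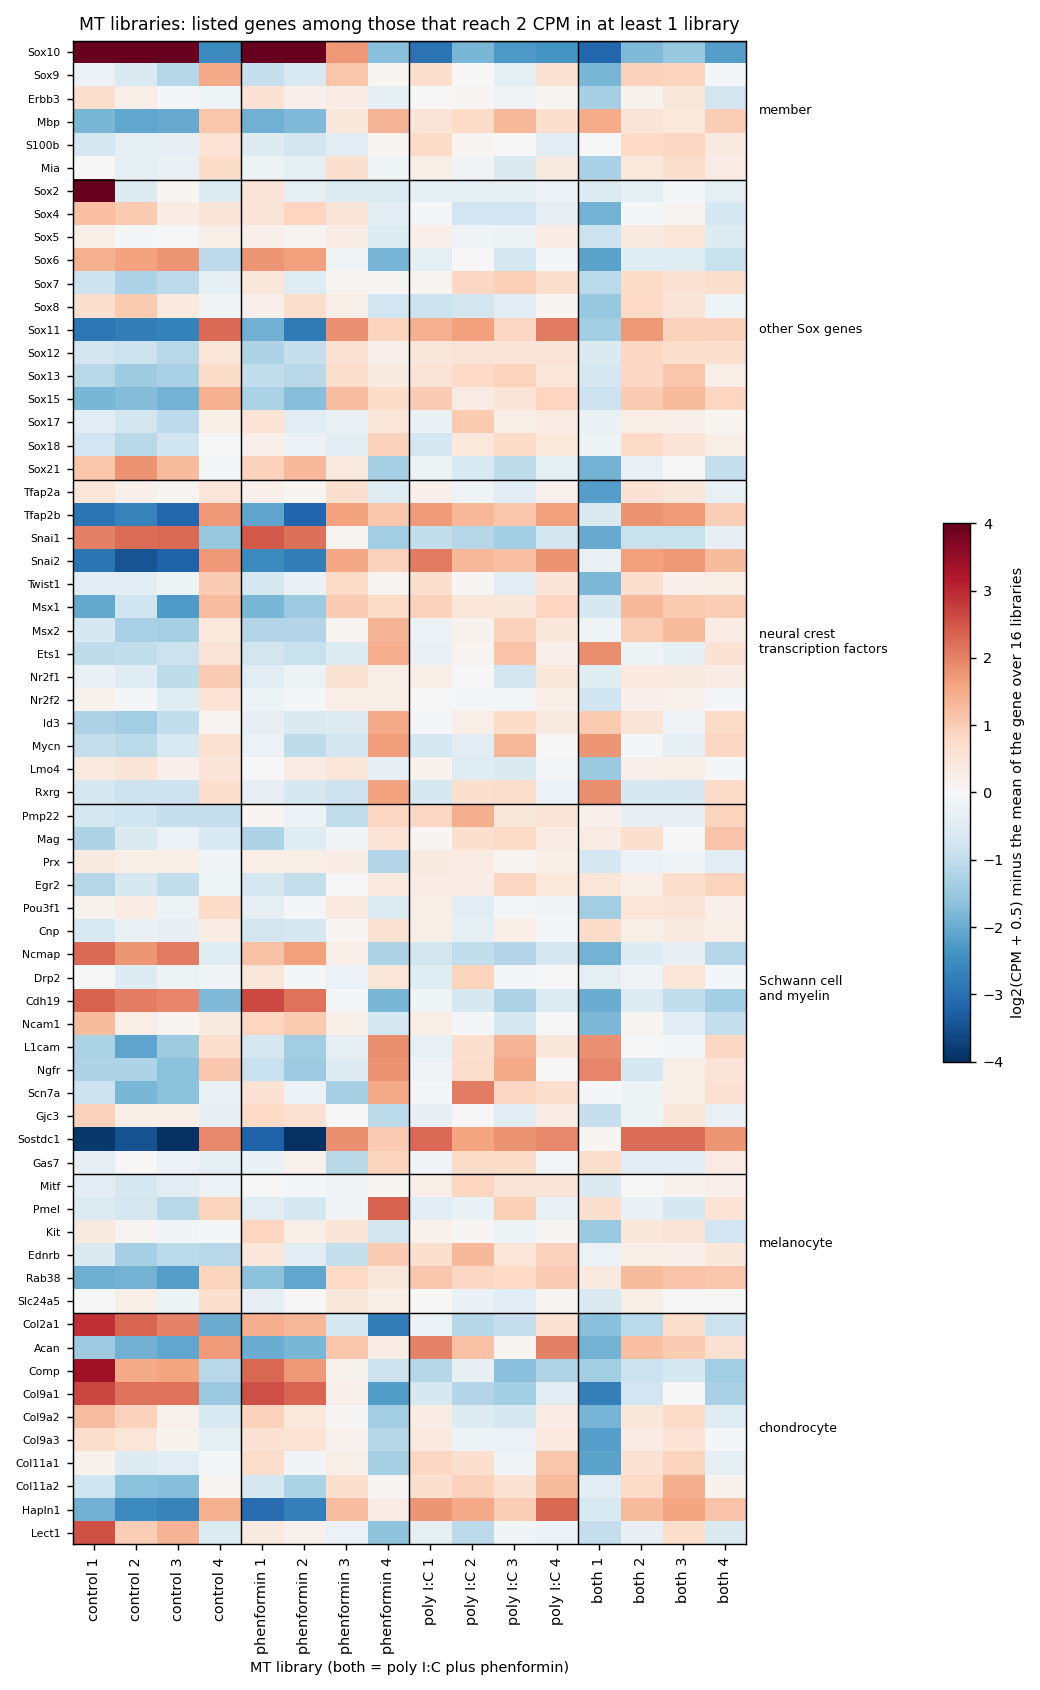
Map of log2(CPM + 0.5) of the members and of listed genes among those that reach 2 CPM in at least 1 MT library, each centred on its mean over the 16 libraries; columns are libraries by arm (both = poly I:C plus phenformin), and colours stop at 4 and -4. Sox10, Cdh19, Snai1, Sox6 and Col9a1 share the red block of control 1 to 3 and phenformin 1 and 2, where Mbp, Snai2, Sox11 and Acan are blue.

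Poly I:C against control in MT tumours is the contrast in which the split falls unevenly between arms, and 19.6% of 17857 genes were called there. Of the lists, 4 of 19 tested Schwann cell and myelin genes were called (Scn7a, Egr2 and Pmp22 higher, Ncmap lower), 2 of 7 melanocyte genes (Mitf and Ednrb higher), 1 of 14 neural crest factors (Snai1 lower), 3 of 12 other Sox genes (Sox7 higher, Sox4 and Sox21 lower) and 4 of 10 chondrocyte genes (Col11a2 higher, Col9a1, Comp and Lect1 lower). Of 11 ErbB genes none was called, and S100a9 was higher among 13 S100 and Mia genes. Nothing is read from these counts about the members, since the members were picked on the same libraries. The count over all genes was 6256 without control 4, the Sox10-low control, and 1512 to 2154 without control 1, 2 or 3 or poly I:C 2, 3 or 4.

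The genes most like Sox10 over the 16 MT libraries were sought by the root mean square difference of log2 CPM, each gene centred on its mean, among 14305 genes. The nearest was Atp12a, an ion-pumping ATPase, at 0.34, followed by the kinase gene Stk32b (0.60), Fkbp6 of the FK506-binding protein family (0.65) and, at rank 5, the amino acid transporter Slc6a15 (0.79). For scale, a gene with no variation would score 3.16. Atp12a was 54.8, 59.7, 58.7 and 0.411 CPM in control 1 to 4 and 63.7, 64.1, 11.3 and 0.537 CPM in phenformin 1 to 4. None of the other members was among the nearest. Erbb3 had rank 1535 and scored 2.85, under the value of a gene with no variation. Mia (rank 8150), Sox9 (10920), S100b (11117) and Mbp (13630) scored above that value, from 3.24 to 4.42. The measure also depends on how far a gene varies, so a low rank does not give its direction.

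The profiles nearest to the mirror image of Sox10 were Dsc3, a desmosomal cadherin (1.16), the keratin gene Krt6a (1.34), Sncg (1.34), Cmah (1.44) and Sostdc1 (1.44), an extracellular antagonist of BMP signalling. Krt6a was 0.363, 0.231, 0.395 and 90.9 CPM in MT control 1 to 4. Mbp had rank 216 by this measure (1.97). The basal keratin Krt5 was 29, 20.7, 23.2 and 2223 CPM in the controls, although Krt8 differed less (266, 249, 257 and 408 CPM). Krt5 was 344 CPM in combination 1, the MT library with the least Sox10, and 1120 to 2535 CPM in the other MT libraries low in Sox10. The MT libraries with little Sox10 thus held more Krt5. In 4T1 libraries, where Sox10 was also low, Krt5 was only 0.47 to 6.62 CPM.

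MT phenformin 3 held an intermediate level of Sox10, and the genes alike to it stood at a like fraction. Relative to phenformin 1, Sox10 in phenformin 3 was 18.3%, Atp12a 17.7%, Stk32b 16.8%, Fkbp6 23.5% and Slc6a15 20.6%. Col9a1 (19.1%), Snai1 (18.9%) and Cdh19 (13.5%) were close to these values and Ncmap was not (51.3%). The likeness measure used phenformin 3 among its 16 libraries, so for these 4 near genes this is a restatement of their profile. Col9a1, Snai1, Cdh19 and Ncmap were set beside them after their values were seen, so their fractions are a description too. Col9a1 was 113 CPM in phenformin 3 and 97.2 CPM in combination 3, where Sox10 was only 3.19 CPM.

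**Figure D5:**
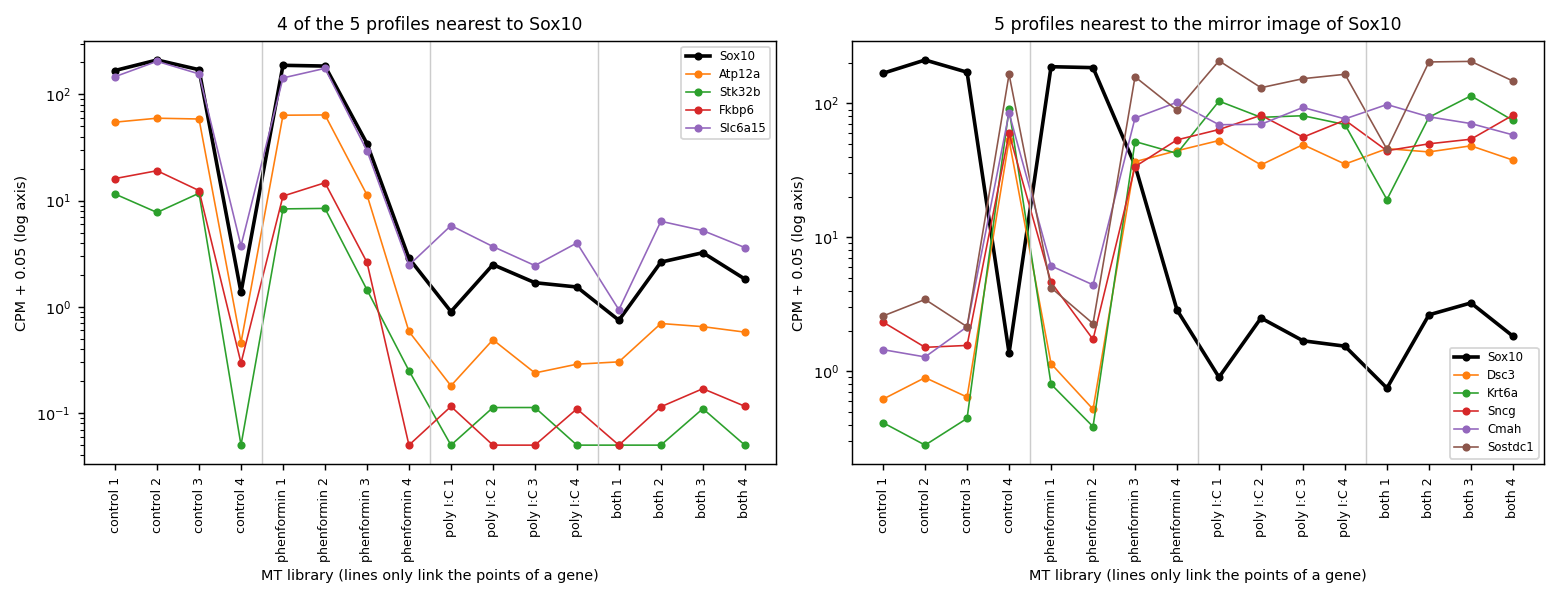
CPM with 0.05 added (log axis) of Sox10 and 4 of the 5 nearest profiles (left), and of Sox10 and the 5 nearest to its mirror image (right), in the 16 MT libraries. Atp12a, Stk32b, Fkbp6 and Slc6a15 drop with Sox10 in control 4 and phenformin 4 and lie between in phenformin 3, while Krt6a rises from at most 0.395 CPM in control 1 to 3 to 90.9 CPM in control 4.

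Of these 4 near genes, 2 had an entry in a RefSeq promoter table for GRCm38.p6, and they are shown because their transcripts moved with Sox10. The 250 bases before the start are printed on the gene's strand, Stk32b at chr5:37717154-37717403 and Fkbp6 at chr5:135350045-135350294, both minus strand. Capitals mark matches to a 6-base Sox motif, searched on both strands. The forms searched were ACAAAG, the form ending in ATG instead, ACAATG, and both of these with T as the first base, which are TCAAAG and then TCAATG in the same order. They differ from one another only in the first base and the base before the last, so no position matches more than 1 of them on a strand.
Stk32b: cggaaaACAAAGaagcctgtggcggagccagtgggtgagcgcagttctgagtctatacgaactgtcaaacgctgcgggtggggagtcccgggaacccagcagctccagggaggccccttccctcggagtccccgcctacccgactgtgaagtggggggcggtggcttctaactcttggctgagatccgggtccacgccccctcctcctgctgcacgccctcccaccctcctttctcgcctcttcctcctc
Fkbp6: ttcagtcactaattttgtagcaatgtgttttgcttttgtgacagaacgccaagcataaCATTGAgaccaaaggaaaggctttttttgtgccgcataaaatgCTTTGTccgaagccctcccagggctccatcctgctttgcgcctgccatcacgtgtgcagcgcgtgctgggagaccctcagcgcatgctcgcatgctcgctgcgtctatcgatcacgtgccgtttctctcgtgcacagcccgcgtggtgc
Stk32b held 1 match and this entry of Fkbp6 held 2, and of 32851 promoters of that length 39.4% held at least 1 and 10.8% at least 2. A second Fkbp6 entry, whose start lies further along the gene, held 0 matches. Among the members S100b (1 match) and Mia (0 matches) had entries. A match is a string of letters and not a measured binding site.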

How the data were processed

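Per the submitters' processing notes, Trimmomatic 0.32.48, STAR 2.3.0 and featureCounts 1.4.4 were used with the mouse genome mm10 (GRCm38). Libraries were strand-specific and poly(A)-selected, from RNA of cell pellets or flash-frozen tissue, per the labels' protocols. The deposited table gives whole-number read counts for each gene, not normalized by the authors. The annotation release, the strand setting and any filter are not given in the sources used here.

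Levels are CPM of library totals, and per-kilobase levels divide by the union of GENCODE exons (GRCm38). One edgeR 4.0.16 fit per model (R 4.3.3) held all its libraries with the group as the only factor, TMM scaling, filterByExpr (minimum count 10, minimum total 15) and quasi-likelihood tests, and a Benjamini-Hochberg adjusted p under 0.05 made a call. Likeness used log2 CPM with a prior count of 2. The edgeR fit was first tested on simulated counts. DESeq2 1.42.0 and other filters, scalings and library choices were alternatives, and the libraries left out by Acta1 (above 10 CPM) or Igkc (above 100 CPM) were chosen from earlier results of these data.

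The members and gene lists were chosen with earlier results of these data known. The naming rule took the members, listed genes called in a tested comparison, up to 3 listed genes per list of highest mean level, and the 5 nearest profiles each way; a few of these and of the listed markers are not reported here. Genes described for running with or against Sox10 (Cdh19, Ncmap, Snai1, Snai2, Tfap2b, Sox6, Sox8, Sox11, Sox21, Sox2, Col2a1, Acan, Col9a3) and the marker genes of other cell types were picked after their values were seen, as marker levels or by pattern.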

Additional observations from a re-analysis of the deposited data

Results flagged for a closer look

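In 42 groups of 4 libraries, 4 values lay far from the other 3 of their group, and chance alone flags about 1 in 20 groups. The flags in MT tumours fell in control 4 and phenformin 3, whose Sox10 levels helped to choose the members. Those flags are therefore a description and are not weighed against chance. Sox10 in 4T1 poly I:C 3 was 2.27 CPM (35 counts), against 0.35, 0.522 and 0.486 CPM in replicates 1, 2 and 4. Mia (0.649 CPM), Cdh19 (1.1 CPM), the fibroblast gene Col1a1 (4349 CPM) and the summed chondrocyte list (33.6 CPM) also had their highest 4T1 value in that library, and Mbp (29.1 CPM) and Ncmap (16.4 CPM) their lowest. The summed Schwann cell and myelin list was 246 CPM there, within the 4T1 range of 210 to 309 CPM. These genes were chosen after their values were seen, and their part in the Sox10 value was not tested. Sox9 in MT control 4 was 1292 CPM against 207 to 389 CPM in the other controls, and Mbp in the same library was 62.3 CPM against 6.39 to 7.72 CPM. Mia in MT phenformin 3 was 21.1 CPM against 10.3 to 11.9 CPM.

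S100b under the combination differed in direction between the models. All 4 MT combination libraries (2.48 to 4.76 CPM) lay above the mean of the MT controls, a log2 ratio of means of 0.80, and all 4 of the 4T1 combination libraries (0.429 to 0.691 CPM) lay below the mean of their controls, a log2 ratio of means of -0.73. The difference between the models was not tested, and MT control 4 (3.78 CPM) was above 2 of the MT combination libraries, as 4T1 control 4 (0.483 CPM) was below 3 of the 4T1 ones. The other MT controls (1.35 to 1.84 CPM) are Sox10-high libraries that helped to choose the members, so the MT ratio is a description. It cannot be told apart from the Sox10 split. The 4T1 values rest on 7 to 25 counts.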

How the results depend on the processing

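None of the 394 refits of member fold changes passed, and the lowest adjusted p was 0.0601, for Erbb3 with poly I:C in 4T1 tumours without the libraries with Igkc above 100 CPM. The refits reuse the same libraries and are not separate tests. For phenformin and the combination against control in 4T1, and the combination against poly I:C in MT, the main fits called no gene at all. The sign turned in 30 refits, 22 of them with 1 library left out. The other 8 were, without libraries with Acta1 above 10 CPM, Sox10 with poly I:C (-0.87), with the combination against control (0.35) and against poly I:C (1.21), and Mbp with poly I:C (0.12) and with the combination against poly I:C (-0.04). They were also Erbb3 with phenformin without libraries with Igkc above 100 CPM (0.03), and, under the replicate block, Sox10 with poly I:C in 4T1 (-0.18) and Sox9 with the combination against poly I:C in MT (-0.10). With 1 library left out, fold changes that turned ran as follows. In 4T1 with poly I:C they were Sox10 -0.75 to 0.48, Sox9 -0.03 to 0.19 and Mbp -0.26 to 0.01. With phenformin they were Erbb3 -0.50 to 0.03 and S100b -0.60 to 0.18. For the 4T1 combination against poly I:C they were Sox10 -1.15 to 0.39 and S100b -0.45 to 0.13. For the MT combination against poly I:C they were Sox9 -0.22 to 0.38, Erbb3 -0.51 to 0.05, Mbp -0.21 to 0.25 and Mia -0.02 to 0.48.

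Counts over all genes moved more. For poly I:C in 4T1 tumours (1102) they were 1973 by DESeq2, 401 with only these groups, 0 without the Acta1 libraries, 259 without the Igkc libraries, and 289 to 1986 with 1 library left out (289 to 455 without control 2, 3 or 4 or poly I:C 2, 1986 without poly I:C 4). For phenformin (0) they were 177 by DESeq2, 2 without a filter, 3 with only these groups and 1 without the Acta1 libraries. For the combination against control (0) they were 395 by DESeq2, 32 with only these groups and 0 to 1 with 1 library left out. For the combination against poly I:C (43) they were 915 by DESeq2, 101 with DESeq2 size factors, 198 at 1 CPM in 4 libraries, 3 with the replicate block, 0 with only these groups, 0 without the Acta1 libraries, 1 without the Igkc libraries, and 1 to 1412 with 1 library left out (1412 without poly I:C 4). In MT tumours the combination against poly I:C (0) gave 4 by DESeq2, and poly I:C against control (3500) gave 1512 to 6256 with 1 library left out. The cause was not tested. Same-numbered replicates did not deviate together (for poly I:C in 4T1, correlations of -0.29 to 0.21 between the same numbers and up to 0.56 between different ones), so the numbers were not taken as pairs, and with the replicate block poly I:C gave 831 genes in 4T1 and 3278 in MT. Other scalings moved 1 of 96 group means by more than 1 SD. Depth limits Sox10, S100b and Mia in 4T1 tumours.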
